A study of Mus musculus with 2 samples.

Results

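Genomic regions assigned to 5 genes, grouped here as neuronal and potassium channel genes, were compared for 5-hydroxymethylcytosine (5-hmC) between imiquimod-treated and vehicle-treated mouse epidermis. The genes are Rtn1, Kcnh1, Kcnmb4, Tshz2 and Bsn. Every row of the authors' table of merged regions whose gene list holds exactly 1 of these symbols was taken, which gave 6 of the 364 listed regions: 1 each for Rtn1, Kcnh1, Kcnmb4 and Tshz2, and 2 for Bsn. 5-hmC was measured by hMeDIP-seq: an antibody to 5-hmC enriches sheared DNA fragments that carry the mark, and these are sequenced. There was 1 library of epidermis from C57BL/6J mice given imiquimod, a Toll-like receptor agonist, at 3.125 mg a day for 6 days from 6 weeks of age, and 1 library from mice of the same strain and age given Vaseline. The table calls both libraries WT, and how many mice went into each library is not stated. The authors had already selected the 364 regions for a large difference between these libraries, and the genes were picked with those differences in view. The differences below are therefore a description and carry no test, and with 1 library per treatment there is no replicate spread.

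5-hmC is made from 5-methylcytosine by TET enzymes, lies mostly at CpG dinucleotides, and is far more abundant in neurons than in most other cells, where it marks bodies of transcribed genes and enhancers. Bsn encodes bassoon, a giant scaffold protein of the presynaptic active zone, where synaptic vesicles fuse. Kcnh1 encodes the pore-forming subunit of a voltage-gated potassium channel of the ether-a-go-go family, and Kcnmb4 encodes an auxiliary subunit of the large-conductance, calcium-activated potassium channel. Rtn1 encodes a reticulon, a protein that shapes membranes of the endoplasmic reticulum and is enriched in neuroendocrine tissue. Tshz2 encodes a teashirt-type zinc finger transcription factor.

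The regions fell on 2 sides. The 4 regions in Rtn1, Kcnh1, Tshz2 and Kcnmb4 lay in introns and had a higher 5-hmC tag pileup under imiquimod, by 2.36-fold to 2.92-fold. The 2 regions in Bsn overlapped coding exons and had a lower one, by 2.31-fold and 2.39-fold. Of all listed regions 25.3% were at least 2-fold higher and 74.2% at least 2-fold lower, which the authors' selection fixes, so nothing is read from the count of 4 against 2.

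The sequence of the Bsn regions is shown because these are the 2 regions that lie over coding exons. The central 300 bases of each are given 5′ to 3′ on the coding strand of Bsn, with each CpG in capitals (GENCODE M21 transcripts, GRCm38).
Bsn exon 5, chr9:108111976-108112275, minus strand: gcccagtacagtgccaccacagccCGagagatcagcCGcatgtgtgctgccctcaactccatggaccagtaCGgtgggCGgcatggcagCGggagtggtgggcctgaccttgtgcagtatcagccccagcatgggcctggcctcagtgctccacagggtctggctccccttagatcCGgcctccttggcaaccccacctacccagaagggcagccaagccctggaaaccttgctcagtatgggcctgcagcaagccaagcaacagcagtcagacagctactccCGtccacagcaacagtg
Bsn exon 7, chr9:108105489-108105788, minus strand: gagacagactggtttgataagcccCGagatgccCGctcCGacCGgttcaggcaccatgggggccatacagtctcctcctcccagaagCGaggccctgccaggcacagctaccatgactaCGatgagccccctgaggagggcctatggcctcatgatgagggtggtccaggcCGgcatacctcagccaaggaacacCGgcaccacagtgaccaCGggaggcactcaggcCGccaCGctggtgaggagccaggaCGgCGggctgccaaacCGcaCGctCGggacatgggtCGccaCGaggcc
The exon 5 stretch holds 7 CpGs, or 23.3 per kb, and the exon 7 stretch 18, or 60.0 per kb. The sequences of the 4 intronic regions were not used here.

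In full, the exon 5 region had a GC content of 60.04% and 33 CpGs in 1071 bases, or 30.8 per kb. The 522 exonic bases of the exon 7 region had a GC content of 64.8% and 25 CpGs, or 47.9 per kb. The ratio of observed to expected CpGs was 0.345 in exon 5 and 0.461 in exon 7. For comparison, the 22 listed lower regions that fit within a single annotated exon of 1 transcript, the Bsn exon 5 region among them, had a median of 59.5% GC (47.5% to 72.0%), 38.9 CpGs per kb (13.6 to 96.4) and an observed to expected ratio of 0.467. Exon 5 of Bsn was thus below the median of that set in CpG density and the exonic part of the exon 7 region above it. The authors' annotation counts 1 CpG island in the exon 7 region and 0 in each of the other 5 regions. Of all listed lower regions 27 of 271 (9.96%) held an island, and of the higher regions 1 of 93 (1.08%).

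Pileup values are given as deposited, as the average number of tags over a region and as the highest pileup of any window in it. The brackets are exact 95% Poisson intervals of the estimated tag number, scaled to the average. All intervals cover counting error only, since there is 1 library per treatment. Reads that carry no molecular identifier need not stem from separate molecules, so the intervals may be too narrow even for counting error. The full depth of each library is not known. Over the 364 regions the median estimated tag number was 53.8 in Vaseline and 28.9 in imiquimod, and the 6 regions held 18.5 to 111 tags per library.

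The Rtn1 region (chromosome 12, 72274270 to 72274871, mm10) had an average pileup of 6.90 (3.98 to 10.6) in Vaseline and 20.2 (15.1 to 26.3) in imiquimod epidermis. The highest pileup was 13 and 33. The estimated tags were 18.5 and 54.1, a ratio of 2.92-fold higher under imiquimod (exact 95% interval 1.73 to 5.44). Rtn1 had the lowest Vaseline average of the 6 regions, ranking 89 of the 93 higher regions by Vaseline average. By fold difference it ranked 3 of those 93. Its log2 ratio was 1.55 by average and 1.34 by highest pileup.

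The Kcnh1 region (chromosome 1, 192317547 to 192318113) had an average pileup of 9.89 (6.40 to 14.6) in Vaseline and 23.7 (18.1 to 30.6) in imiquimod epidermis. The highest pileup was 20 and 45. The estimated tags were 25.0 and 59.9, 2.40-fold higher under imiquimod (1.48 to 4.00). It had the highest imiquimod pileup of the 4 intronic regions on either scale. It was also the only intronic one of these with an enriched interval called by the authors in the Vaseline library as well as in the imiquimod library. Among all 93 higher regions 24 had a call in both.

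The Tshz2 region (chromosome 2, 169823559 to 169824171) had an average pileup of 8.26 (5.34 to 12.6) in Vaseline and 20.2 (15.2 to 26.2) in imiquimod epidermis. The highest pileup was 13 and 30, and the estimated tags 22.6 and 55.2. The ratio was 2.45-fold higher (1.45 to 4.08), next to that of Kcnh1 in rank, with 17 and 18 of 93.

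The Kcnmb4 region (chromosome 10, 116470007 to 116470782) had an average pileup of 7.04 (4.45 to 10.3) in Vaseline and 16.6 (12.7 to 21.7) in imiquimod epidermis, 2.36-fold higher (1.48 to 4.07). The highest pileup was 11 and 21, a difference of 0.93 on the log2 scale, so by that measure this region was under 2-fold. At 775 bp it ranked 3 by length among the higher regions, and its imiquimod average ranked 90 of 93. It was the broadest and flattest of the intronic regions: its highest imiquimod pileup was 1.26 times its average, against 1.48 in Tshz2, 1.64 in Rtn1 and 1.90 in Kcnh1, and a median of 1.61 over the higher regions. By highest pileup 16.8% of all regions were at least 2-fold higher and 55.2% at least 2-fold lower.

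The intervals of the 4 intronic ratios overlapped one another over most of their width, so no order of size among them is shown beyond counting error. In each of these regions the Vaseline and imiquimod intervals of the average did not overlap. Every listed region had at least 49.5 tags in its higher library and a fold difference of at least 1.9998. This separation is thus largely built into the selection and lends the differences no support.

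In Bsn the order of the libraries was the opposite. The exon 5 region (chromosome 9, 108111589 to 108112660) had an average pileup of 23.1 (19.1 to 28.0) in Vaseline and 9.67 (7.04 to 12.8) in imiquimod epidermis, with a highest pileup of 44 and 19. The estimated tags were 111 and 46.2, 2.39-fold lower under imiquimod (1.70 to 3.48). The exon 7 region (chromosome 9, 108105286 to 108105990) had an average pileup of 24.2 (19.1 to 30.3) in Vaseline and 10.5 (7.23 to 14.7) in imiquimod epidermis, with a highest pileup of 41 and 15. Its tags were 76.1 and 33.0, 2.31-fold lower (1.51 to 3.58).

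The exon 5 region was deeply covered for this table, ranking 7 of the 271 lower regions by tags in the higher library, and at 1071 bp it was the longest of the 6. By average the Bsn regions differed nearly alike, with log2 ratios of -1.26 in exon 5 and -1.21 in exon 7. By highest pileup their order turned, with -1.21 in exon 5 and -1.45 in exon 7. Both Bsn regions had an enriched interval called in the Vaseline library and none in the imiquimod library. Nearly all lower regions were like this, with 269 of 271 called in Vaseline and 16 of 271 in imiquimod. Together they held 187 tags in Vaseline and 79.2 in imiquimod, 2.36-fold lower (1.81 to 3.12). Libraries were not replicated, so the pair gives 2 places in 1 gene and not 2 measurements of the treatment.

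**Figure D1:**
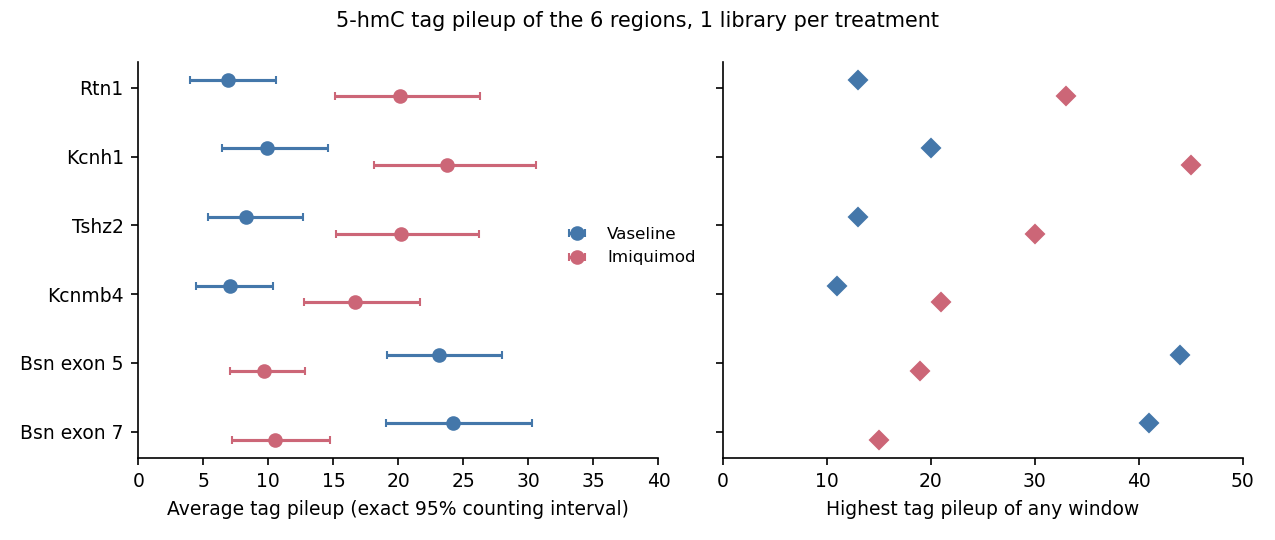
Average tag pileup (left, circles with exact 95% counting intervals) and highest pileup of any window (right, diamonds) of the 6 regions in the Vaseline library (blue) and the imiquimod library (red). In the 4 intronic regions the imiquimod average lies between 16.6 and 23.7, above Vaseline, and in the 2 Bsn regions the Vaseline average lies at 23.1 and 24.2, above imiquimod.

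The regions differed sharply in where they lay. The Rtn1 region was 134369 bp from the gene start by the authors' distance, and 28786 bp from the nearest annotated exon. It lay in the intron between exons 3 and 4 of the transcript with the longest coding sequence. Counting the exons of all annotated Rtn1 transcripts, the exon-free stretch around it was 66932 bp long. Shorter Rtn1 transcripts start further along the gene, and the nearest such start was 37547 bp downstream of the region. The Kcnh1 region was 126958 bp from the start, in the 60228 bp intron between exons 6 and 7, and 19287 bp from the nearest exon. The Tshz2 region was 190219 bp from the start, in the 249746 bp intron between exons 1 and 2, and 59355 bp from the nearest exon. It also lay inside Gm26883, an annotated long noncoding RNA gene on the opposite strand, and so belongs to overlapping genes. These 3 were deep in introns, by a limit of 10000 bp from the start and no exon overlap.

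Kcnmb4 was an exception among the intronic regions. Its region was 3129 bp from the gene start and 2404 bp from the nearest exon, in the first intron, and was the only one of the 6 to which the authors assigned a promoter. The authors also listed 4933400F03Rik for it, placing it 3951 bp upstream of that gene. RefSeq (GRCm38.p6) gives this name as a synonym of the noncoding gene Kcnmb4os2. The region overlapped no exon of either gene, and its tags cannot be attributed to the start of one rather than the other.

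The Bsn regions were 78259 bp and 84745 bp from the gene start by the authors' distance, in the exon-dense last part of the gene. A shorter annotated Bsn transcript starts between them, 1177 bp downstream of the exon 5 region. In Kcnh1, Tshz2 and Kcnmb4 the nearest transcript start downstream of the region was 116627 bp, 60722 bp and 23600 bp away. Exon 5 is 6642 bp long, and the region lay wholly inside it, over bases 5892 to 6962 of a coding sequence of 11826 bp. The second region covered 522 coding bases of exon 7 (bases 10745 to 11266), which is 74.1% of its length, and reached into the intron between exons 6 and 7. The regions were 5599 bp apart, with 3 other numbered regions between them that are not in the table. The nearest other listed region lay 21959 bp away, was assigned to Rnf123, Mst1 and Apeh, and was also lower under imiquimod (average 22.2 in Vaseline and 10.9 in imiquimod). For the 4 intronic regions the nearest listed region lay 226678 bp (Rtn1) to 9357858 bp (Kcnmb4) away.

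**Figure D2:**
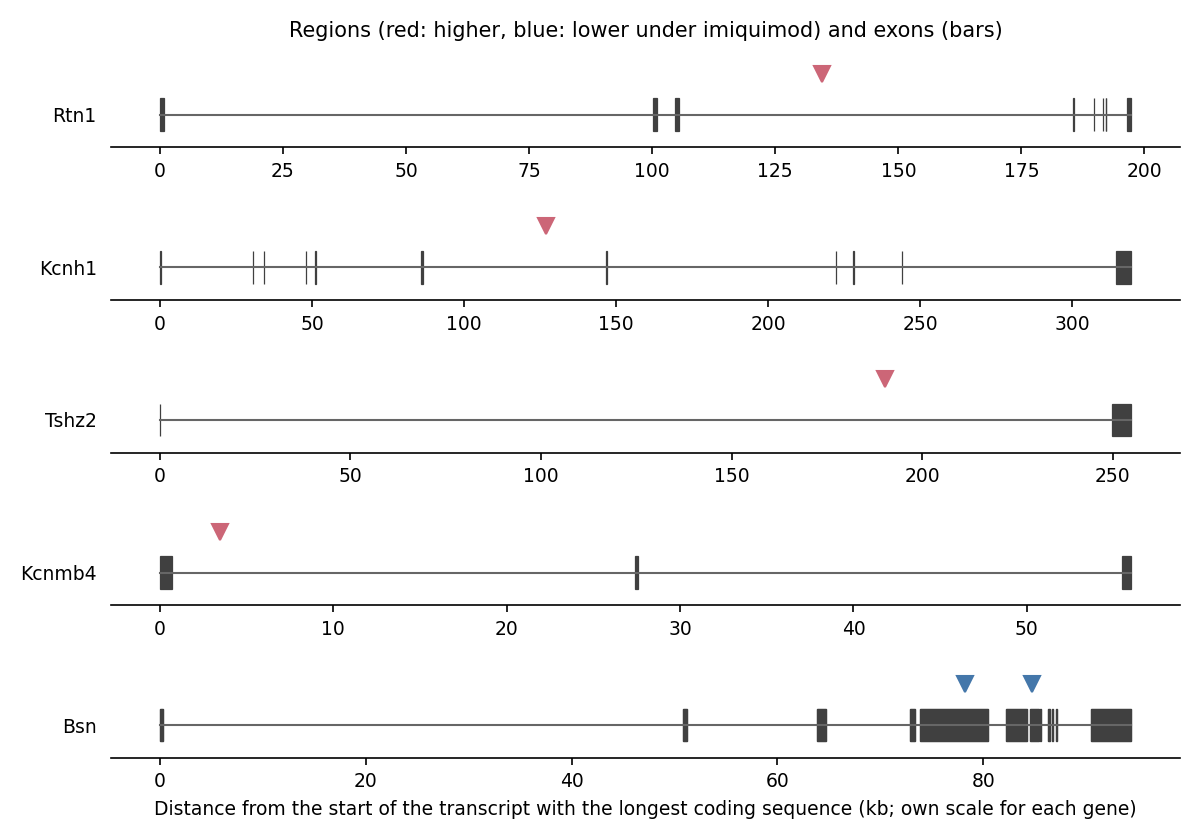
Position of the 6 regions (triangles, red for higher and blue for lower under imiquimod) along the transcript with the longest coding sequence of each gene, with exons as bars and distance from the transcript start in kb, on a separate scale for each gene. The Rtn1, Kcnh1 and Tshz2 regions stand in long introns, the Kcnmb4 region close to the start, and the 2 Bsn regions over exons 5 and 7.

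By exon overlap the higher and lower regions were apart, since 0 of the 4 intronic regions touched an exon and both Bsn regions did. By the authors' distance to the gene start they were not, as the Bsn regions stood between Kcnmb4 and Kcnh1. The genes were put together with their position in view, so this split is part of how they were chosen. Among all listed regions inside an annotated gene, an exon was overlapped by 6 of 46 higher regions (13.0%, exact 95% binomial interval 4.94 to 26.3) and 131 of 224 lower ones (58.5%, 51.7 to 65.01). Regions deep in introns made up 32 of the 46 higher regions (69.6%, 54.3 to 82.3) and 70 of the 224 lower ones (31.3%, 25.2 to 37.8). These intervals treat regions as independent, although neighbours are not. Rtn1, Kcnh1 and Tshz2 are thus of the commonest kind among higher regions inside genes, and Bsn of the commonest kind among lower ones.

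The deep intronic regions stood at the far end of their class. By distance to the start, Tshz2 ranked 4, Rtn1 8 and Kcnh1 10 of the 46 higher regions inside genes, whose median was 34671 bp. By distance to the nearest exon, Tshz2 ranked 2, Rtn1 5 and Kcnh1 7 of the 40 higher regions that lay in introns alone, whose median was 3729 bp, and Kcnmb4 ranked 25. Bsn ranked 28 and 36 by distance to the start among the 224 lower regions inside genes, whose median was 17207 bp. The host genes were long as well, with 197303 bp for Rtn1, 319386 bp for Kcnh1 and 438804 bp for Tshz2, against a median of 97065 bp for the genes of higher regions and 47081 bp for those of lower regions. Bsn spans 94363 bp and Kcnmb4 56018 bp.

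**Figure D3:**
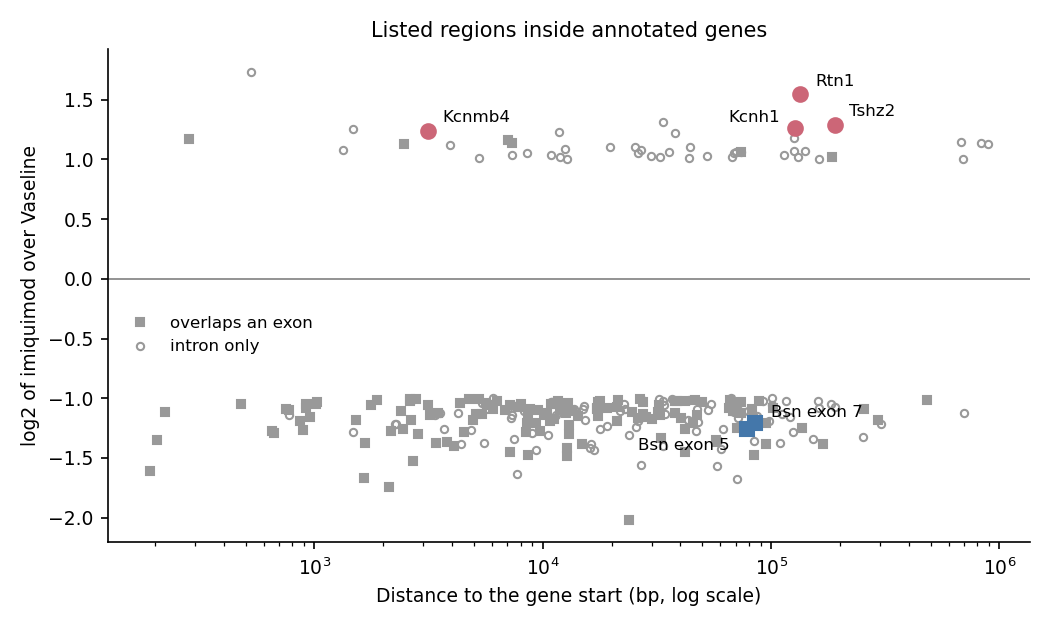
log2 ratio of the average pileup against the distance to the gene start (log scale) for 279 pairs of a listed region and the gene it lies in, with filled squares for regions that overlap an exon and open circles for regions in introns alone; the 6 described regions are coloured and named. The empty band around 0 is due to the selection of the table. Bsn at 78259 bp and 84745 bp and Rtn1, Kcnh1 and Tshz2 at 126958 bp to 190219 bp lie on opposite sides of 0.

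The contrast between the intronic and the Bsn regions was present in each library. In Vaseline epidermis the Bsn averages of 23.1 and 24.2 stood above the intronic averages of 6.90 to 9.89, and the intervals of the 2 sets did not overlap. The highest pileups were 41 and 44 against 11 to 20. In imiquimod epidermis the order was the opposite, with 9.67 and 10.5 in Bsn against 16.6 to 23.7 in the introns. There the intervals of both Bsn regions overlapped that of Kcnmb4 and lay below those of Rtn1, Kcnh1 and Tshz2. The medians over all listed regions gave the same picture, with 19.3 in Vaseline and 8.63 in imiquimod for lower regions and 10.2 and 22.4 for higher ones, so the levels of the 6 regions follow the class that the table put them in.

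How the libraries were scaled to each other is not stated, and any other single scaling factor would move all log2 ratios by the same amount. The difference between the log2 ratio of an intronic region and that of a Bsn region does not depend on such a factor. This difference ran from 2.45 (Kcnmb4 against Bsn exon 7) to 2.81 (Rtn1 against Bsn exon 5). The smallest fold difference of any listed region was 1.9998, so the selection fixed a wide gap between any higher and any lower region. The size of the gap is therefore only a description.

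**Figure D4:**
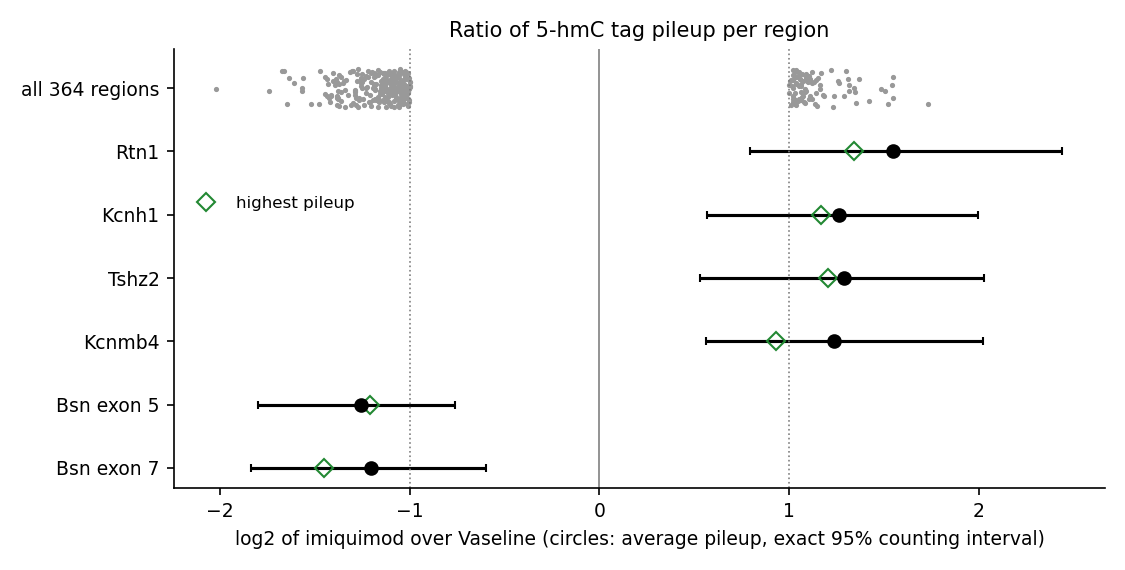
log2 ratio of imiquimod over Vaseline for the 6 regions by average pileup (black circles with exact 95% counting intervals) and by highest pileup (green diamonds), above them all 364 listed regions (grey points, spread vertically for legibility); dotted lines mark 2-fold. The 4 intronic regions lie between 1.24 and 1.55 and the 2 Bsn regions at -1.26 and -1.21, and by highest pileup Kcnmb4 falls inside the dotted line at 0.93.

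Related genes were looked up on 5 lists. Of 94 potassium channel genes, 2 had a higher region, namely Kcnh1 and Kcnmb4, and 0 had a lower one. The pore-forming and auxiliary subunits of this list, apart from these, had no listed region, but a gene missing from a selected table was not shown to be alike in the 2 libraries. Rtn1 was the only one of 8 reticulon and reticulon receptor genes, and Tshz2 the only one of 3 teashirt genes, with a listed region. Over 21924 protein-coding genes, 0.233% had a higher region and 1.35% a lower one. The genes with a region on these 3 lists are the described genes themselves, which were picked for having one. No enrichment is therefore read from these shares.

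Among 37 genes of the active zone and of vesicle release, 2 (5.41%) had a lower region and 0 a higher one. Besides Bsn, itself picked for its listed regions, this was Vamp2. It encodes a synaptobrevin of the SNARE complex that fuses synaptic vesicles. The region assigned to Vamp2 lay downstream of it and inside Per1, a circadian clock gene, with averages of 16.5 (Vaseline) and 8.19 (imiquimod). Among 81 other ion channel genes, chosen by the start of their symbols, 2 had a lower region and 0 a higher one. These were Cacnb3, an auxiliary calcium channel subunit, whose region lay downstream of it and inside the helicase gene Ddx23, and Scnm1, which is caught by its symbol and encodes a splicing factor rather than a channel. Channel genes with other symbols are not on that list. Named after their values were seen, Asic2, an acid-sensing sodium channel gene, held a lower region in an intron (average 26.9 in Vaseline and 12.4 in imiquimod), and Cngb1, a cyclic nucleotide-gated channel gene, a lower one that overlapped an exon (21.7 and 8.44).

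The tissue label could not be checked with these data, since a table of regions selected for a difference does not show which cells were present. Of the marker genes looked up, 1 of 5 keratinocyte genes (Krt1) had a listed region, and 0 of 6 nerve and Schwann cell genes and 0 of 4 melanocyte genes. In DNA from whole epidermis, a change in 5-hmC within cells and a change in the share of cells carrying it cannot be told apart.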

How the data were processed

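Epidermis had been separated from dermis with dispase, and its DNA given barcode adapters and immunoprecipitated before Illumina sequencing, per the labels' protocols. The build mm10 and the tools CASAVA and MACS2 come from the submitters' processing notes, which give no version. The aligner, the duplicates, an input control and the scaling are described in no source used here. Enriched intervals of 4 libraries had been merged by the authors into numbered regions, per the file headers. The other 2 libraries, with 6 columns of values, were not used.

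The columns for control and treated were matched to Vaseline and imiquimod by those words, on which every direction rests. The deposited signal is an average and a highest tag pileup (coverage) per region. The authors' deposited tag score equals the larger average times the length divided by 224, and their deposited log2 ratio the one computed from the averages, with no pseudocount, in all 364 regions (tolerance 1e-06). Tags per library were computed in the same way. Interval calls and the counts of CpG islands and promoters were used as deposited. A second deposited sheet repeats the averages, alike for all 6 regions.

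Ratio intervals are Clopper-Pearson intervals (95%) of the imiquimod share of rounded tags. Their coverage was checked only on simulated independent counts without selection. That check does not show their coverage for regions selected on their ratio and tag number. Coordinates are as deposited, with starts that may be counted from 0, and sequence coordinates are counted from 1. Exons come from the GENCODE M21 annotation (GRCm38, the assembly mm10 names), with any overlap counted. Where a region lies in more than 1 gene, the gene with exon overlap was taken, then the more distant start. Sequence was taken from annotated transcripts. The members, the named genes (all regions of the members, genes on 5 lists, and up to 4 regions nearest in log2 ratio) and the lists were chosen with earlier results of these data known. Results for 1 gene that the rule names are left out here. Python 3.11.15, pandas 2.3.3 and SciPy 1.17.1 were used.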

Additional observations from a re-analysis of the deposited data

How the results depend on the processing

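Every one of the 6 log2 ratios kept its sign under the highest pileup, 3 rescalings and pseudocounts of 1 and 10. A pseudocount or a scaling of this size could hardly turn the sign of a region selected at 2-fold, so this says little about stability. Of the 36 values, only Bsn exon 5 with a pseudocount of 10 left its counting interval, at -0.75, since that pseudocount shrinks every ratio at these averages. The counts of regions past 2-fold, 4 higher and 2 lower, depended on the scaling. With imiquimod multiplied by 1.2, or by the 1.40 that makes the averages sum alike over the listed regions, 4 were higher and 0 lower. With imiquimod divided by 1.2, 2 were higher (Rtn1 and Tshz2) and 2 lower. A minimum of 100 tags left 0 higher and 1 lower region, and 3-fold left 0 and 0. Placement did not depend on the transcript set, on asking for most of the region to be exonic, or on limits of 5000 or 20000 bp, and GC content was alike in the central 300 bases. At 3-fold, the potassium channel, reticulon and teashirt lists had 0 genes with a higher region, the other ion channels 0 with a lower one, and the active zone list 0. With regions inside the gene only, the other ion channels had 0 and the active zone list 1, Bsn. No paired analysis was possible because each treatment has 1 library; for the same reason no replicate could be left out. Counts near 20 tags limit the Vaseline values of the intronic regions.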

Other observations

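The listed regions nearest in log2 ratio to the 6 described included a region of the Rab11 effector gene Rab11fip4 (-1.21, next to Bsn exon 7 at -1.21, average 21.4 in Vaseline and 9.28 in imiquimod), a region assigned to Ubp1 and Fbxl2 (-1.26, next to Bsn exon 5 at -1.26) and a chromosome 4 region without an assigned gene (1.55, next to Rtn1 at 1.55, average 9.13 in Vaseline and 26.7 in imiquimod). Likeness was measured on 1 ratio from 2 libraries, so it says no more than that these values are close.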
